A study of Mus musculus with 11 samples.

Results

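Peptide signalling genes were followed across sorted neurons of 3 sensory nuclei of the mouse thalamus: the dorsolateral geniculate (dLG, visual), the ventral posteromedial (VPM, somatosensory) and the ventromedial geniculate (MGv, auditory). The set held 60 genes of 54752 in the count tables, namely 24 precursors of neuropeptides or natriuretic peptides, 35 receptors for them and Crhbp, a binding protein for corticotropin-releasing hormone. Members were found by matching gene symbols, and each of the 60 symbols matched 1 gene. Cck, Nts, Nppa and Galr1 were chosen by their CPM and fold changes in these same libraries, so they are described without a test. They are left out of every count of called genes, which runs over the 40 of the other 56 that were tested. There were 4 libraries from dLG, 4 from VPM and 3 from MGv.

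All libraries came from ICR/CD-1 mice at postnatal day 0 of the genotype Gbx2CreER-IRES-EGFP/+::R26lsl-tdTomato/+, in which tamoxifen-induced recombination under the Gbx2 promoter labels young postmitotic thalamic neurons with tdTomato. The nuclei therefore share the stated strain, genotype, age and inducing agent, and the labels tell them apart by the site of dissection. Red cells were sorted, and each library pooled the tissue of 4 brains. Nothing in the labels says whether libraries of a nucleus came from separate litters, so p-values measure the spread between these libraries. Because whole sorted samples were sequenced, a higher count cannot tell more cells expressing a gene from more RNA per cell.

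Neuropeptides are cut from larger precursor proteins in dense-core vesicles by prohormone convertases, and many are then trimmed and amidated before release. They act mostly on G protein-coupled receptors and modulate transmission over a longer time and distance than glutamate or GABA. Cholecystokinin is a well-known peptide of forebrain projection neurons, and nociceptin, galanin and enkephalin act on receptors that mainly inhibit.

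Depth was 15867673 to 22699900 assigned reads in dLG, 18909454 to 23559130 in VPM and 10175653 to 13164909 in MGv. Values are given below in CPM, the read count of a gene scaled to a common library total after correction by the trimmed mean of M values, in the order of the replicate numbers, and a count of 3 reads corresponded to 0.129 to 0.291 CPM. In dLG 2, VPM 3 and MGv 1 the chaperone gene Hspa8 stood at 3.05 to 5.55 CPM against 159 to 580.1 CPM in the other 8 libraries. Its part in the results below was not tested beyond leaving those 3 libraries out or giving them a term in the model. The summed level of 9 thalamic relay neuron markers was 2825 to 4498 CPM and that of 9 pan-neuronal markers 10799 to 15378 CPM. Single markers of these lists differed by nucleus in both directions. Gbx2, whose promoter drives the label, was at 272 to 332 CPM in MGv and 14.2 to 51.6 CPM elsewhere. Nefm was at 254 to 327 CPM in MGv and 490 to 1475 CPM elsewhere. The part of these differences in the results below was not tested. Slc32a1, the vesicular GABA transporter, was at 0 in 10 of 11 libraries and at 0.0463 CPM in VPM 1. Summed over the 11 markers of GABAergic, reticular and prethalamic cells, the level was 0.429 to 7.48 CPM, and 8 of them stayed under 1 CPM in every library.

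Among the precursors with wide differences between nuclei were the cholecystokinin and galanin genes, low in MGv, and the neurotensin and calcitonin genes, high in MGv. Their upstream sequences are shown so that the genes with opposite patterns can be read side by side. Each runs 5′ to 3′ on the coding strand, from RefSeq promoter windows of build GRCm38.p6, up to the base before the gene's first annotated base: chr9:121495695-121495944 for Cck, chr19:3414545-3414794 for Gal, chr10:102490487-102490668 for Nts and chr7:114636358-114636607 for Calca. Capitals mark matches on either strand to TGACG, the core of a cyclic AMP response element (CRE), and to TGANTCA, an AP-1 site.
Cck: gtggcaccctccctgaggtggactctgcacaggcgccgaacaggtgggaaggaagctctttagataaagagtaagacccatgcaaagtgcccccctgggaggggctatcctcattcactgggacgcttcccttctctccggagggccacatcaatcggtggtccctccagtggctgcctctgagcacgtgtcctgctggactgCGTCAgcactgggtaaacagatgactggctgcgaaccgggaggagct
Gal: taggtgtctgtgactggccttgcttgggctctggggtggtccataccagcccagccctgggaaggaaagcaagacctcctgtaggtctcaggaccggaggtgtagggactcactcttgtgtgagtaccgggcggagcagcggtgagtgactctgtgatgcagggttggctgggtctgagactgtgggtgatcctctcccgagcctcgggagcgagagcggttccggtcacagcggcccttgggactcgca
Nts: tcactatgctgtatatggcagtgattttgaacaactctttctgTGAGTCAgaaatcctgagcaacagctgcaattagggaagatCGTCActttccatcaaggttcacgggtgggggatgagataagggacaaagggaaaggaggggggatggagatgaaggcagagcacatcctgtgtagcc
Calca: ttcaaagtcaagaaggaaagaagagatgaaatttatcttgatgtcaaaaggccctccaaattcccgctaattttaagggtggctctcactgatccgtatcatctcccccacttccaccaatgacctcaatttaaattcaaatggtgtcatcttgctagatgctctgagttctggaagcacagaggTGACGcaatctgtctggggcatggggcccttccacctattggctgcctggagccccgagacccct

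All of these genes lie on the minus strand. The TGACG match began 47 bases before the RefSeq start of Cck, 65 bases before that of Calca and 166 bases before that of Nts, and the AP-1 match of Nts began 207 bases before its start. The RefSeq start of Nts lies inside the annotated gene. Its sequence above was therefore cut to 182 bases, and its distances do not run from the last base shown. The window of Gal held neither motif. Windows of 250 bases were at hand for 48 of the 60 genes, which had 57 windows. A gene was counted when any of its windows held a match. The background is a share of single windows, so the 2 are not on the same scale. TGACG occurred in those of 20 genes and in 17.8% of the 32851 mouse promoter windows, and the full CRE, TGACGTCA, which contains TGACG, occurred in those of Cartpt, Scg2, Sst and Sstr2 and in 1.55% of all windows. The full CRE lay 68 bases before the start of Scg2, 48 before that of Sst and 58 before that of Sstr2. AP-1 matches were found for Nts and Npy1r and in 6.75% of all windows. These are matches of letters and not measured sites.

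Of the 60 genes, 44 passed the count filter: 19 of 24 precursors, 24 of 35 receptors and Crhbp. The 16 that did not were Crh, Cartpt, Calcb, Tac2 and Vip among precursors and Sstr3, Sstr4, Cckar, Npy2r, Galr3, Nmbr, Vipr1, Oprm1, Oprd1, Npr3 and Calcrl among receptors. Their highest value in any library was 1.40 CPM, for Sstr3, and 14 of them never reached 1 CPM. None was at 0 in every library, so their absence from these neurons was not shown at this depth.

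Per exon length, Cck and Scg2, which encodes the granin secretogranin II, led the precursors in dLG and VPM. Cck had 550.0 CPM per kilobase of exon in dLG, 2192 in VPM and 46.5 in MGv. Scg2 stood at 369, 905 and 624 on the same scale, and it was the highest of the 60 genes in MGv. In MGv, Nts followed Scg2 at 109 and Vgf at 103, where dLG and VPM had Gal at 119 and 197. Among receptors, Oprl1, the nociceptin receptor, was highest in each nucleus, at 35.6 in dLG, 38.9 in VPM and 38.7 in MGv.

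**Figure D1:**
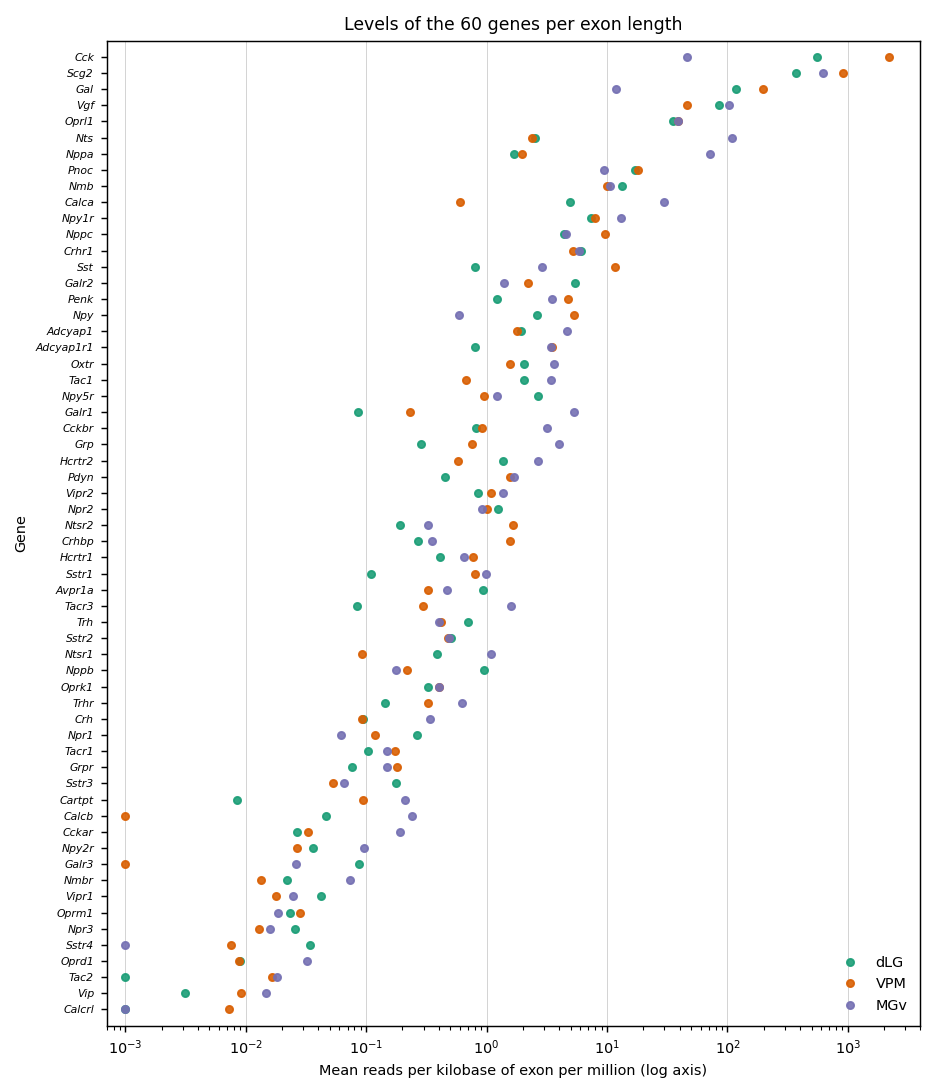
Mean CPM per kilobase of exon (log axis) of the 60 genes in dLG, VPM (4 libraries each) and MGv (3 libraries), ordered by the mean over all libraries, with zeros drawn at 0.001. The points of Cck, Nts, Nppa and Calca lie far apart between nuclei, whereas those of Oprl1 nearly coincide.

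Summed over all 24 precursors, the level in CPM was 2080 ± 532 in dLG (SD, n = 4), 5526 ± 732 in VPM (n = 4) and 2278 ± 172 in MGv (n = 3). Cck and Scg2 carried most of this sum. Without them the other 22 summed to 433 ± 74.9, 390.3 ± 40.8 and 648 ± 50.1 CPM. The 34 receptors other than Oprl1 summed to 111 ± 10.9 CPM in dLG, 115 ± 20.3 in VPM and 185 ± 5.80 in MGv. Such sums include the genes chosen for their levels in MGv and are descriptions.

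**Figure D2:**
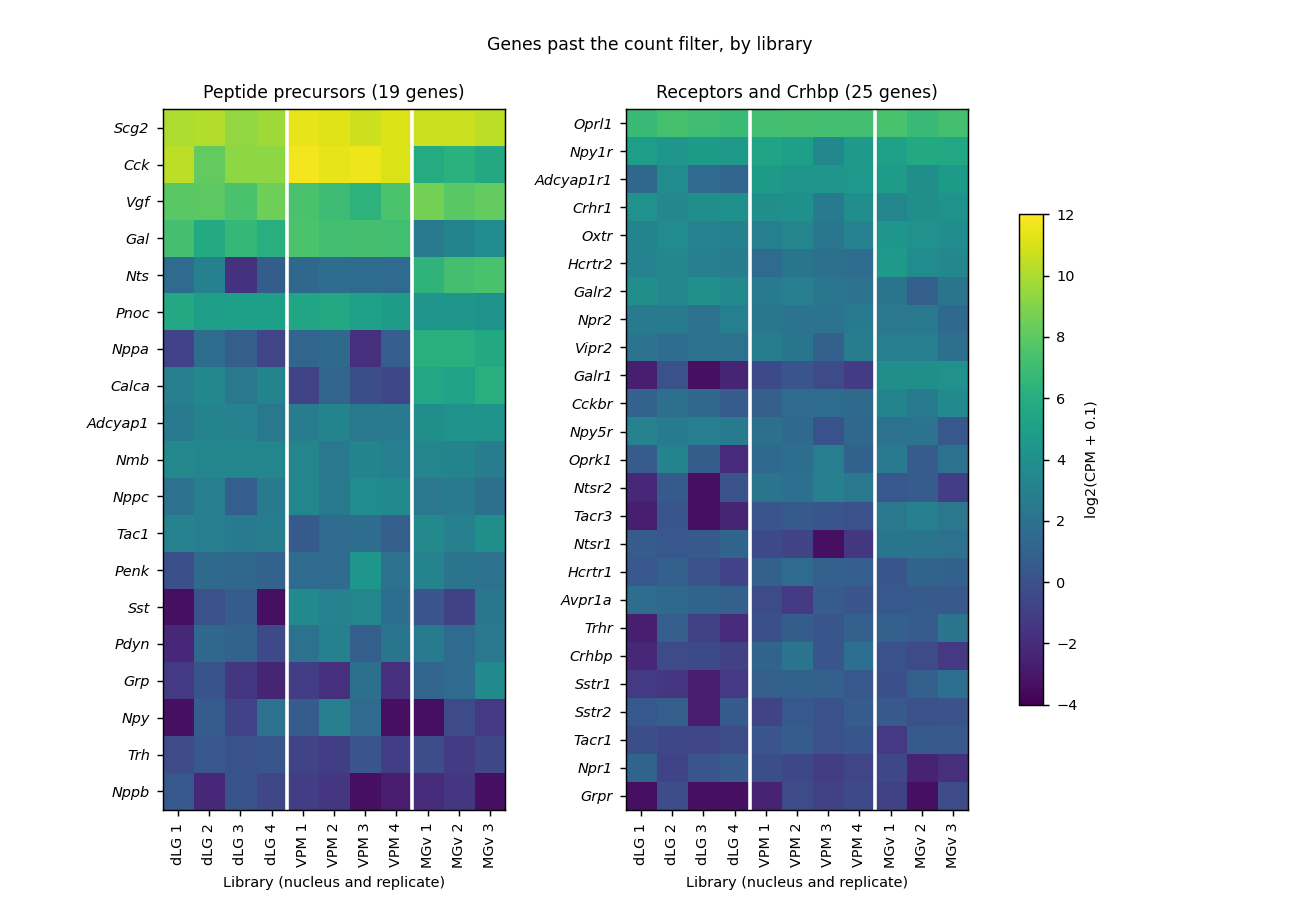
log2(CPM + 0.1) of the 19 precursors and of the 24 receptors and Crhbp that passed the count filter, ordered by mean CPM, with 1 column for each of the 11 libraries and white lines between nuclei. Cck and Gal are darker in the MGv columns, Nts, Nppa, Calca and Galr1 are brighter there, and Oprl1 is even across all columns.

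Differences between nuclei were tested with edgeR's quasi-likelihood test on the counts of all 11 libraries, with p-values adjusted by the Benjamini-Hochberg method across all 15907 genes in the test. A gene was called at an adjusted p under 0.1. Of the 56 genes, 40 passed the count filter and were tested. Between dLG and VPM, 15 of these 40 were called (37.5%), 8 higher in dLG and 7 higher in VPM. Of all genes tested, 10.7% were called there. Between dLG and MGv, 15 were called, 4 higher in dLG and 11 in MGv, against a background of 16.1%. Between VPM and MGv, 14 were called, 5 higher in VPM and 9 in MGv, against 19%. By direction, the background was 4.97% higher in dLG and 5.74% in VPM for the first comparison, 8.61% in dLG and 7.49% in MGv for the second, and 10.4% in VPM and 8.56% in MGv for the third. In all, 24 genes were called in at least 1 pairwise comparison (background 28.3%), and 23 by the test among the 3 nuclei (24.2%). For the 40 tested genes, absolute log2 fold changes had a median of 1.13, 0.91 and 0.68 in these comparisons, beside 0.27, 0.32 and 0.36 over all genes tested. Grp, Nppb and Grpr reached 0.529 CPM, the level that counted toward the filter, in fewer than the required 3 libraries outside the nucleus with their highest mean. The counts include Grp, called in the test among the 3 nuclei and as higher in MGv than in dLG, and nothing is read from its call. Since the members were chosen with results in view, nothing is read from the members' share beside the background. The comparisons share libraries, so each nucleus enters 2 of them.

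**Figure D3:**
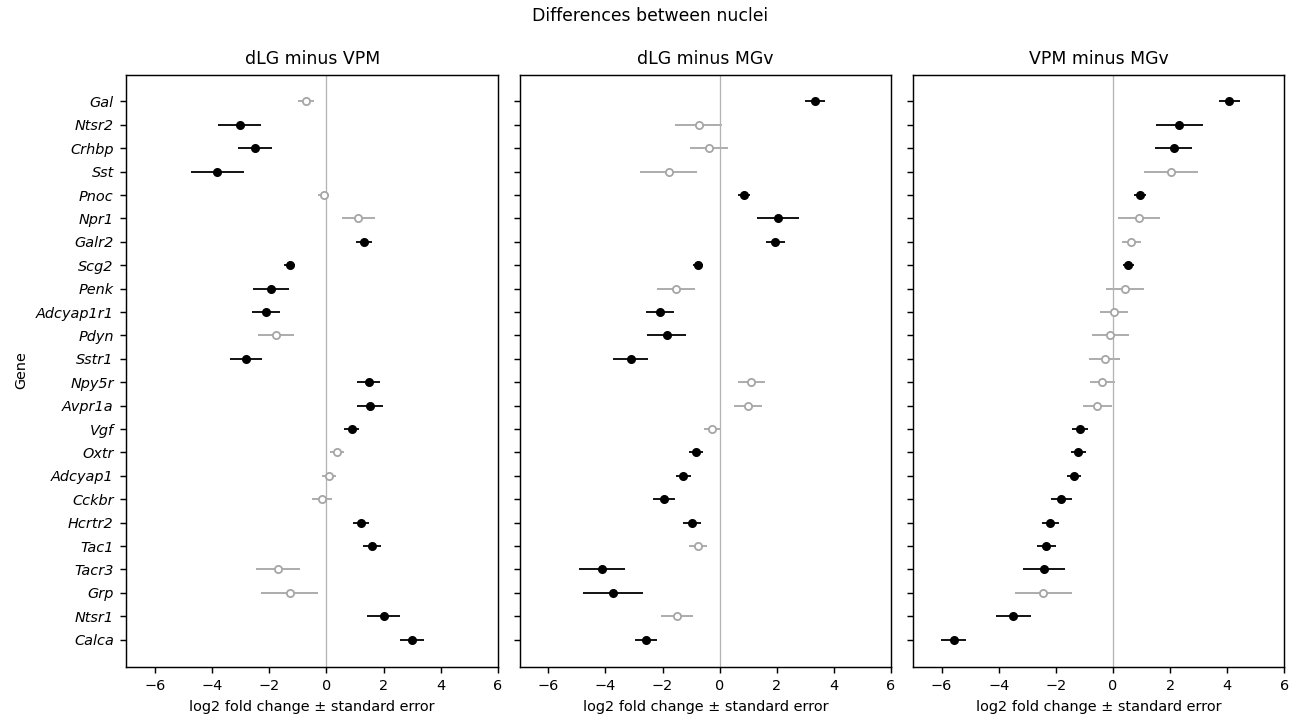
log2 fold change ± standard error of the 24 genes called in at least 1 pairwise comparison, in the direction named above each panel. Filled black points were called at an adjusted p under 0.1 and open grey points were not; Gal lies furthest to the right and Calca furthest to the left in the comparison of VPM with MGv.

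Cck, the precursor of cholecystokinin (chr9:121489824-121495694, GRCm38), was the most abundant member in VPM. It had 1332, 289.8, 619 and 630.3 CPM in dLG 1 to 4, 3411, 2684, 3082 and 2264 CPM in VPM 1 to 4 and 58.4, 73.8 and 50.0 CPM in MGv 1 to 3. Every VPM library was above every dLG library, and every dLG library above every MGv library. The fitted difference was 3.99-fold between VPM and dLG and 11.8-fold between dLG and MGv. Its brain receptor gene, Cckbr, was highest where Cck was lowest, at far lower counts. It stood at 1.95, 3.65, 2.45 and 1.38 CPM in dLG, 1.71, 2.85, 3.04 and 2.80 CPM in VPM and 9.23, 5.70 and 12.5 CPM in MGv, and all MGv libraries exceeded all others. Cckbr was 3.86-fold higher in MGv than in dLG (log2 fold change 1.95 ± 0.37 (SE), adjusted p = 0.00325 by edgeR) and 3.51-fold higher than in VPM (adjusted p = 0.00542). The other receptor of the peptide, Cckar, did not pass the filter.

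Gal encodes galanin, which acts on 3 receptors, of which Galr1 and Galr3 mainly inhibit through Gi. Gal stood at 152, 55.7, 101 and 65.6 CPM in dLG, 179.7, 142, 157 and 141 CPM in VPM and 5.78, 9.21 and 12.9 CPM in MGv. All 3 MGv libraries were below all 8 others, whereas dLG and VPM overlapped. The gene was 10.1-fold higher in dLG than in MGv (log2 fold change 3.34 ± 0.36, adjusted p = 3.9e-05, edgeR) and 16.8-fold higher in VPM than in MGv (4.07 ± 0.37, adjusted p = 1.07e-05). For dLG against VPM the log2 fold change was -0.73 ± 0.28, with an adjusted p of 0.153.

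The galanin receptors were distributed otherwise. Galr1 had 0.0608, 0.858, 0 and 0.0953 CPM in dLG, 0.648, 1.08, 0.681 and 0.333 CPM in VPM and 14.9, 15.5 and 17.3 CPM in MGv. MGv was thus the only nucleus of these in which Galr1 stood above 1.08 CPM in any library, and it was the nucleus with the least Gal. The fitted log2 difference of MGv over dLG was 5.82 with dLG 2 and 8.03 without it, and it depends on a few reads in dLG. Galr2, whose product also couples to Gq, was highest in dLG, with 14.9, 10.6, 16.1 and 12.1 CPM there, 5.6, 7.05, 4.77 and 4.09 CPM in VPM and 4.43, 1.67 and 4.27 CPM in MGv. No dLG library overlapped with the others. Galr2 was 2.49-fold higher in dLG than in VPM (log2 fold change 1.32 ± 0.29, adjusted p = 0.0122, edgeR) and 3.87-fold higher than in MGv (1.95 ± 0.34, adjusted p = 0.00158).

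**Figure D4:**
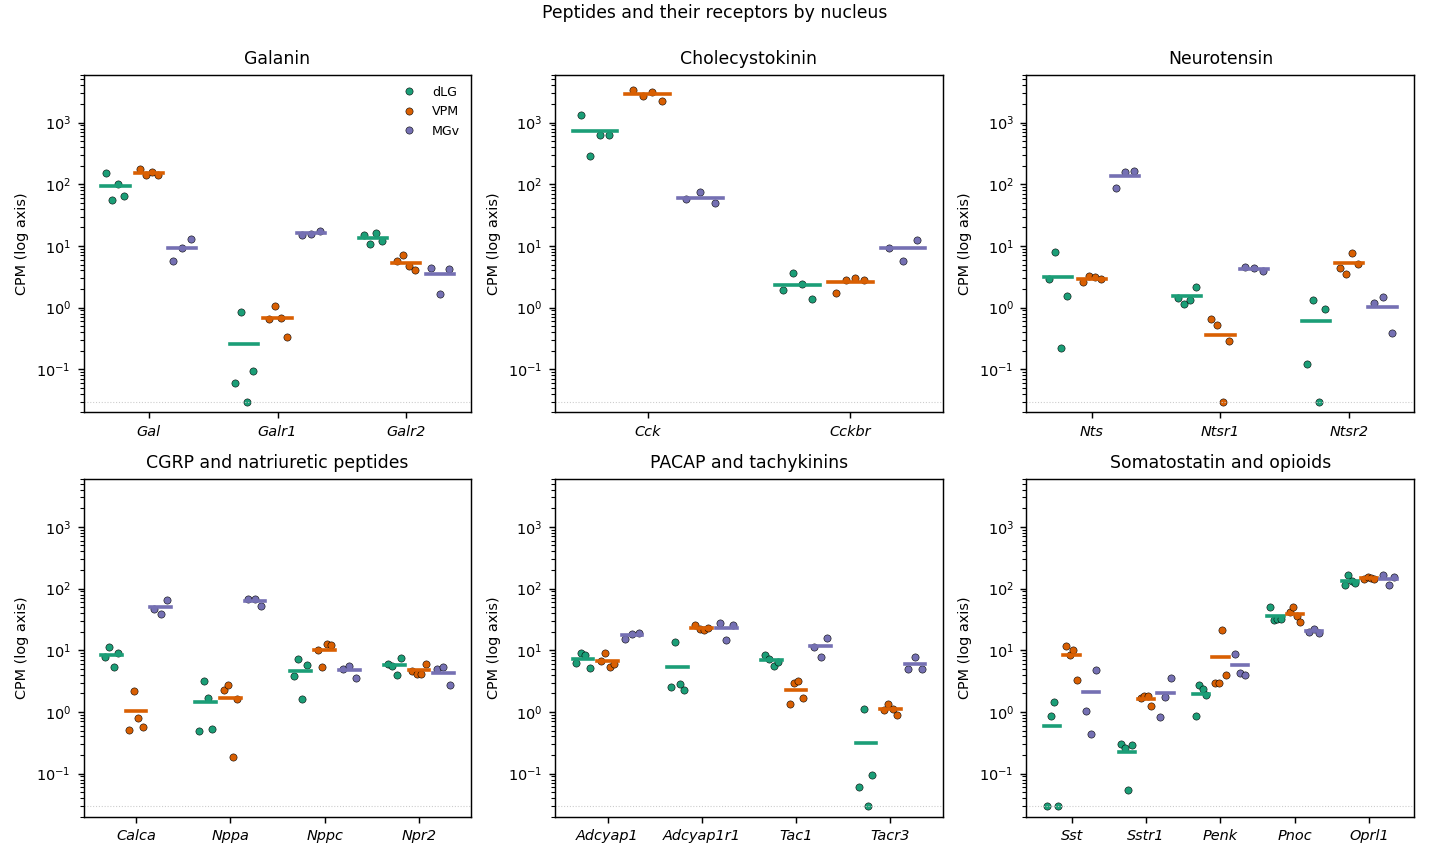
CPM on a log axis of 6 groups of peptides and their receptors, with 1 point per library (dLG and VPM 4 each, MGv 3), a bar at the mean of each nucleus and zeros drawn on the dotted line at 0.03. The MGv points are lowest for Gal and Cck and highest for Galr1, Cckbr, Nts, Ntsr1, Calca and Nppa.

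Nts, the precursor of neurotensin and neuromedin N (chr10:102481756-102490486), had 2.92, 8.03, 0.218 and 1.53 CPM in dLG, 2.59, 3.24, 3.10 and 2.90 CPM in VPM and 86.5, 156 and 166 CPM in MGv. The lowest MGv library was well above the highest of the others, dLG 2. The log2 difference of MGv over dLG was 5.39, and 6.47 without dLG 2. Ntsr1, the high-affinity neurotensin receptor, stood at 1.46, 1.16, 1.31 and 2.14 CPM in dLG, 0.648, 0.519, 0 and 0.285 CPM in VPM and 4.58, 4.38 and 3.88 CPM in MGv, so the nuclei did not overlap. The gene was 11.3-fold higher in MGv than in VPM (log2 fold change 3.49 ± 0.62, adjusted p = 0.00215, edgeR) and 4.00-fold higher in dLG than in VPM (2.0 ± 0.58, adjusted p = 0.0539). MGv over dLG was not called, although the libraries did not overlap (1.49 ± 0.57, adjusted p = 0.114). The call for dLG over VPM was lost without dLG 1, dLG 4 or VPM 4 (adjusted p = 0.103 to 0.150) and with counts thinned to the smallest total.

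Ntsr2, a low-affinity neurotensin receptor, was highest in VPM instead. It had 0.122, 1.33, 0 and 0.953 CPM in dLG, 4.40, 3.46, 7.81 and 5.13 CPM in VPM and 1.20, 1.49 and 0.388 CPM in MGv, with every VPM library above all others. It was 8.25-fold higher in VPM than in dLG (log2 fold change 3.04 ± 0.74, adjusted p = 0.0227, edgeR), and the log2 fold change rose to 3.79 without dLG 2 and was 4.07 with limma. Against MGv it was 4.98-fold higher (2.32 ± 0.82, adjusted p = 0.0797). That call was lost when any 1 of the VPM or MGv libraries was left out (adjusted p = 0.105 to 0.228), with the replicate block and without the Hspa8-low libraries. Ntsr2 is also known from astrocytes, and the summed level of 7 astrocyte and radial glia markers was 56.9 to 139 CPM in dLG, 86.7 to 151 in VPM and 76.1 to 191 in MGv. One of them, Aldoc, was at 27.9 to 46.5 CPM in VPM, above all other libraries, at 16.6 to 19.5 in MGv and at 2.10 to 11.8 in dLG, and VPM 3 was the highest library for both Aldoc and Ntsr2. Aldh1l1 and Fabp7 overlapped between VPM and the other nuclei. The part of these markers in the Ntsr2 result was not tested.

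Calca encodes calcitonin and, by alternative splicing, the calcitonin gene-related peptide (CGRP), which is the main product in neurons. Gene counts cannot tell the 2 products apart. Calca (chr7:114631478-114636357) had 7.66, 11.2, 5.28 and 9.15 CPM in dLG, 0.509, 2.21, 0.805 and 0.570 CPM in VPM and 46.4, 38.5 and 64.8 CPM in MGv. The nuclei were fully separated, in the order MGv, dLG, VPM. It was 47.7-fold higher in MGv than in VPM (log2 fold change 5.58 ± 0.45, adjusted p = 3.62e-06, edgeR), 5.98-fold higher in MGv than in dLG (2.58 ± 0.38, adjusted p = 0.00051) and 7.97-fold higher in dLG than in VPM (3.00 ± 0.41, adjusted p = 0.000409). Without VPM 2, the highest VPM library, the log2 fold change against VPM rose to 6.32 for MGv and to 3.73 for dLG, and with thinned counts that of MGv over VPM was 6.28. All 3 calls were kept in every alternative.

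The CGRP receptor needs the products of Calcrl and of Ramp1. Calcrl did not pass the filter, and its highest value was 0.0950 CPM. Ramp1 was at 1.46 to 6.63 CPM over all libraries and was not called (adjusted p = 0.503, 0.542 and 0.141 by edgeR). Ramp3, which with Calcrl forms an adrenomedullin receptor and with Calcr an amylin receptor, was clearly measured. It stood at 6.15 to 17.4 CPM in dLG, 29.7 to 50.1 in VPM and 29.2 to 54.0 in MGv. The log2 fold change below VPM was -1.99 ± 0.33 (adjusted p = 0.00208) and below MGv -2.06 ± 0.35 (adjusted p = 0.00146). Calcr was at or below 0.351 CPM in all libraries.

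Nppa encodes atrial natriuretic peptide, best known from the heart. It had 0.486, 3.13, 1.69 and 0.524 CPM in dLG, 2.27, 2.77, 0.186 and 1.62 CPM in VPM and 67.0, 67.3 and 53.0 CPM in MGv. MGv was separated from both other nuclei, which overlapped. The log2 difference of MGv over dLG was 5.38, and 6.11 without dLG 2. Of the exon bases of Nppa (chr4:148000722-148002079, plus strand), 61.5% overlap Gm13054 on the opposite strand. The methods of the study describe amplified cDNA and no step that keeps strand, and whether the counting used strand is not stated. Reads from the shared bases may therefore not be told apart between the 2 genes.

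Of the other natriuretic genes, Nppc, the precursor of C-type natriuretic peptide, was at 1.63 to 12.8 CPM and was called among the 3 nuclei but in no pairwise comparison (lowest adjusted p = 0.106, dLG against VPM, edgeR). Nppb did not exceed 1.22 CPM. Npr1 and Npr2 encode guanylyl cyclases, whereas Npr3, the gene of the clearance receptor, did not pass the filter. Npr2, the receptor for the C-type peptide, was at 2.72 to 7.48 CPM with no call. Npr1, the receptor for the Nppa product, had 2.13, 0.472, 1.09 and 1.38 CPM in dLG, 0.787, 0.605, 0.372 and 0.523 CPM in VPM and 0.6, 0.0877 and 0.194 CPM in MGv. Its mean was lowest in MGv, and dLG 2 overlapped with the other nuclei. It was 4.09-fold higher in dLG than in MGv (log2 fold change 2.03 ± 0.73, adjusted p = 0.0924, edgeR). This call was lost in 8 of the 11 fits that left out 1 library, those without dLG 1, 3 or 4, VPM 1, 2 or 4 or MGv 2 or 3 (adjusted p = 0.114 to 0.246), and with no count filter, with only the nuclei compared and with a term for the Hspa8-low libraries. The log2 fold change was 3.12 without MGv 1, 3.38 without the Hspa8-low libraries and 2.65 with thinned counts.

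Adcyap1, the precursor of the pituitary adenylate cyclase-activating peptide (PACAP), had 6.32, 8.93, 8.49 and 5.24 CPM in dLG, 6.81, 9.17, 5.39 and 5.89 CPM in VPM and 15.5, 18.2 and 18.9 CPM in MGv. MGv was above all other libraries. Adcyap1 was 2.42-fold higher in MGv than in dLG (log2 fold change 1.27 ± 0.25, adjusted p = 0.00353, edgeR) and 2.57-fold higher than in VPM (1.36 ± 0.25, adjusted p = 0.00249). The receptor gene Adcyap1r1 set dLG apart instead, with 2.55, 13.3, 2.88 and 2.24 CPM in dLG, 26.1, 22.4, 21.1 and 22.8 CPM in VPM and 27.2, 14.9 and 25.8 CPM in MGv. It was 4.34-fold higher in VPM than in dLG (log2 fold change 2.12 ± 0.48, adjusted p = 0.0143) and 4.26-fold higher in MGv than in dLG (2.09 ± 0.50, adjusted p = 0.0137). Without dLG 2, which lay nearest to the other nuclei, these log2 fold changes were 3.19 and 3.14, and without the Hspa8-low libraries 3.21 and 3.00. With limma the first was 2.90. Vipr2, which also binds PACAP, was at 1.80 to 7.45 CPM with no call, and Vip and Vipr1 did not pass the filter.

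Tac1 encodes substance P and neurokinin A. It was at 8.45, 7.13, 5.61 and 6.39 CPM in dLG, 1.34, 2.94, 3.16 and 1.71 CPM in VPM and 11.5, 7.72 and 15.5 CPM in MGv. VPM was below all other libraries, and dLG and MGv overlapped. Tac1 was 3.02-fold higher in dLG than in VPM (log2 fold change 1.59 ± 0.31, adjusted p = 0.0065, edgeR) and 5.06-fold higher in MGv than in VPM (2.34 ± 0.33, adjusted p = 0.000397). Tac1 is also a gene of the habenula. Of 6 habenula markers, summing to 99.4 to 153 CPM in dLG, 63.9 to 97.2 in VPM and 77.0 to 88.5 in MGv, Nhlh2 carried the most reads in every nucleus and had its lowest mean in MGv, while Gpr151 was at or below 0.375 CPM and Pou4f1 at or below 0.816 CPM in all libraries. Gng8, another of the 6, was at 11.7 to 34.3 CPM in MGv, above all other libraries, at 3.37 to 9.73 in VPM and at 0.730 to 3.76 in dLG, and MGv 3 was the highest library for both Gng8 and Tac1. Chrnb4 reached 2.81 CPM in MGv 2. The part of these markers in the Tac1 results was not tested. The preferred receptor of its product, Tacr1, was at 0.3 to 1.47 CPM with no call.

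Tacr3, the receptor for neurokinin B, was higher in MGv, although Tac2, the precursor of neurokinin B, did not exceed 0.0750 CPM. Tacr3 had 0.0608, 1.12, 0 and 0.0953 CPM in dLG, 1.06, 1.34, 1.12 and 0.903 CPM in VPM and 4.95, 7.89 and 5.05 CPM in MGv, with MGv above all others. The log2 fold change over dLG was 4.11 ± 0.81 (adjusted p = 0.00409, edgeR), and 6.62 without dLG 2, 6.76 without the Hspa8-low libraries, 5.76 with limma and 4.87 with thinned counts. Over VPM it was 2.42 ± 0.74 (adjusted p = 0.0471), a call that was lost without MGv 2 or VPM 1 (adjusted p = 0.138 and 0.103).

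Sst, the precursor of somatostatin, was highest in VPM, with 0, 0.858, 1.47 and 0 CPM in dLG, 11.9, 8.47, 9.97 and 3.33 CPM in VPM and 1.05, 0.438 and 4.76 CPM in MGv. Every VPM library was above every dLG library, whereas VPM 4 fell below MGv 3. It was 14.2-fold higher in VPM than in dLG (log2 fold change 3.82 ± 0.93, adjusted p = 0.0216, edgeR), and the log2 fold change was 4.73 without dLG 3 and 6.54 with limma. No read of Sst was counted in 2 dLG libraries. Sst is common in GABAergic neurons, in which Gad1 and Gad2 are expressed. Here Gad1 was at or below 2.72 CPM and Gad2 at or below 1.42 CPM in all libraries, and Slc32a1 was at or near 0. Gad1 and Gad2 overlapped between dLG and VPM. Isl1 and Six3 were at 0 in every dLG library, and Pvalb did not exceed 0.129 CPM there. In VPM these genes reached 1.21, 0.303 and 0.778 CPM, and each was at 0 in VPM 4, the VPM library with the least Sst. Isl1 was at 0.750 to 1.49 CPM in MGv. The 11 markers of GABAergic, reticular and prethalamic cells summed to 0.429 to 2.13 CPM in dLG, 1.05 to 7.48 in VPM and 3.15 to 6.21 in MGv. The part of these markers in the Sst result was not tested. The somatostatin receptor gene Sstr1 was lowest in dLG, with 0.304, 0.258, 0.0544 and 0.286 CPM there, 1.71, 1.82, 1.80 and 1.24 CPM in VPM and 0.825, 1.75 and 3.5 CPM in MGv. All dLG libraries were below all others. Sstr1 was 7.06-fold higher in VPM (log2 fold change 2.82 ± 0.57, adjusted p = 0.00779) and 8.64-fold higher in MGv (3.11 ± 0.61, adjusted p = 0.00378) than in dLG, and the latter log2 fold change was 2.47 without MGv 3. Sstr2 did not exceed 1.72 CPM, and Sstr3 and Sstr4 did not pass the filter.

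Of the opioid family, Pnoc, the precursor of nociceptin, was the most abundant precursor per exon length. It had 50.6, 30.9, 32.3 and 32.2 CPM in dLG, 41.6, 50.7, 35.6 and 28.4 CPM in VPM and 20.0, 22.0 and 18.8 CPM in MGv, with all MGv libraries below all others. It was 1.80-fold higher in dLG (log2 fold change 0.85 ± 0.22, adjusted p = 0.0239, edgeR) and 1.93-fold higher in VPM (0.95 ± 0.22, adjusted p = 0.0135) than in MGv. Its receptor gene Oprl1 had 114, 165, 134 and 121 CPM in dLG, 141, 153, 149 and 140.2 CPM in VPM and 169, 112 and 154 CPM in MGv. The nuclei overlapped, and no comparison was called (adjusted p = 0.708, 0.717 and 0.979).

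Penk and Pdyn, the precursors of enkephalins and dynorphins, were low. Penk had 0.851, 2.75, 2.39 and 1.91 CPM in dLG, 2.96, 2.94, 20.9 and 4.04 CPM in VPM and 8.78, 4.30 and 3.98 CPM in MGv. Its difference between VPM and dLG (log2 fold change 1.94 ± 0.62, adjusted p = 0.0795, edgeR) leaned on VPM 3, without which it was 0.73 (adjusted p = 0.313), and was 1.13 with limma and 0.94 without the Hspa8-low libraries (adjusted p = 0.163), although every dLG library was below every other library. The call was also lost without dLG 1, 3 or 4 (lowest adjusted p = 0.137), with only the nuclei compared, with the replicate block and without the Hspa8-low libraries. Of the exon bases of Penk, 14.3% overlap A830012C17Rik on the opposite strand. Pdyn had 0.122, 2.45, 2.07 and 0.620 CPM in dLG, 4.03, 7.91, 1.67 and 4.56 CPM in VPM and 6.30, 2.98 and 5.24 CPM in MGv, so MGv was above dLG. It was 3.63-fold higher in MGv than in dLG (1.86 ± 0.67, adjusted p = 0.0969; 3.05 with limma), and the call was lost without dLG 1, 3 or 4, VPM 1, 2 or 4, or any 1 MGv library (adjusted p = 0.102 to 0.242), with scaling to total counts, with only the nuclei compared and with the replicate block. Of the classical opioid receptors, Oprk1 was at 0.143 to 8.97 CPM, highest in dLG 2, with no call, and Oprm1 and Oprd1 did not pass the filter.

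Several receptors for hypothalamic peptides were measured in neurons in which the precursors were low or outside the set. Hcrtr2, an orexin receptor, had 8.45, 10.7, 7.46 and 6.82 CPM in dLG, 2.87, 4.54, 3.72 and 3.18 CPM in VPM and 25.2, 13.3 and 10.5 CPM in MGv. VPM was below all others. Hcrtr2 was 4.57-fold higher in MGv (log2 fold change 2.19 ± 0.30, adjusted p = 0.000304, edgeR) and 2.34-fold higher in dLG (1.22 ± 0.28, adjusted p = 0.0173) than in VPM. The difference of MGv over dLG was 0.97 ± 0.30 (adjusted p = 0.0487), and that call was lost without MGv 1 or without dLG 1, 3 or 4 (adjusted p = 0.107 to 0.317), with the replicate block and without the Hspa8-low libraries. Hcrtr1, the other orexin receptor, was at 0.477 to 2.85 CPM with no call.

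Oxtr, the oxytocin receptor gene, had 9.30, 13.0, 8.27 and 8.25 CPM in dLG, 7.27, 9.47, 4.83 and 8.27 CPM in VPM and 20.8, 17.1 and 14.1 CPM in MGv, with MGv above all others. It was 2.32-fold higher in MGv than in VPM (log2 fold change 1.21 ± 0.26, adjusted p = 0.00694, edgeR). Over dLG it was 1.78-fold higher (0.83 ± 0.26, adjusted p = 0.0498), a call lost without dLG 1, 3 or 4 or MGv 1 or 2 (adjusted p = 0.106 to 0.190). Avpr1a, a vasopressin receptor gene, was instead highest in dLG, at 3.16, 2.79, 2.18 and 1.81 CPM there, 0.695, 0.303, 1.42 and 1.05 CPM in VPM and 1.20, 1.32 and 1.26 CPM in MGv. No dLG library overlapped with the others. The difference from VPM was 2.88-fold (log2 fold change 1.53 ± 0.45, adjusted p = 0.0551), and the call was lost without dLG 1 or 2 or VPM 1 or 2 (adjusted p = 0.106 to 0.163), with the replicate block and with thinned counts (adjusted p = 0.228).

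Of the receptors for neuropeptide Y, Npy1r was the most abundant per exon length, at 30.3, 21.5, 26.1 and 23.6 CPM in dLG, 41.3, 33.0, 11.1 and 24 CPM in VPM and 34.8, 52.3 and 48.8 CPM in MGv. VPM spanned a wide range, and no comparison was called (adjusted p = 0.892, 0.117 and 0.159, edgeR). Npy5r was highest in dLG, with 8.39, 6.10, 7.02 and 5.86 CPM there, 3.66, 2.64, 0.929 and 2.47 CPM in VPM and 4.05, 4.21 and 1.17 CPM in MGv, so that dLG was above all other libraries. It was 2.80-fold higher in dLG than in VPM (log2 fold change 1.48 ± 0.41, adjusted p = 0.0433), a call that was lost without dLG 1 or VPM 2 (adjusted p = 0.123 and 0.1). Npy itself ranged from 0 to 7.61 CPM with no call, and Npy2r did not pass the filter.

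Of the corticotropin-releasing hormone genes, the receptor Crhr1 was even, with 17.3, 10.4, 15.8 and 16.1 CPM in dLG, 15.3, 15.9, 6.07 and 14.4 CPM in VPM and 10.1, 15.3 and 17.8 CPM in MGv. The lowest library of each nucleus was the one with low Hspa8, and no comparison was called (adjusted p = 0.776, 0.946 and 0.806, edgeR). Crhbp, whose product binds the hormone outside the cell, was highest in VPM, with 0.122, 0.730, 0.653 and 0.429 CPM in dLG, 2.13, 4.37, 1.12 and 3.56 CPM in VPM and 0.9, 0.701 and 0.291 CPM in MGv. Every VPM library was above all others. It was 5.65-fold higher in VPM than in dLG (log2 fold change 2.50 ± 0.58, adjusted p = 0.0165) and 4.34-fold higher than in MGv (2.12 ± 0.65, adjusted p = 0.0467), and the second call was lost without MGv 2 or 3 or VPM 2 (adjusted p = 0.101 to 0.152) and with the replicate block. The first log2 fold change was 3.11 with limma, and the second 2.71 without the Hspa8-low libraries. Crh did not pass the filter.

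Grp, the precursor of gastrin-releasing peptide, varied widely within nuclei, with 0.304, 1.03, 0.272 and 0.0953 CPM in dLG, 0.370, 0.173, 3.72 and 0.190 CPM in VPM and 2.25, 2.98 and 12.4 CPM in MGv. MGv was above dLG, and VPM 3 overlapped with MGv. Grp passed the filter only through MGv, so a difference from the other nuclei was built into the choice of genes tested, and its values are given as a description. The log2 difference of MGv over dLG was 3.73, and it ranged from 2.57 without MGv 3 to 5.10 without the Hspa8-low libraries. Its receptor gene Grpr did not exceed 0.773 CPM. Nmb, the precursor of neuromedin B, was at 5.28 to 11.7 CPM with no call, and 20.6% of its exon bases overlap Sec11a on the same strand. Trh and its receptor gene Trhr were at 0.351 to 1.16 and 0.0608 to 4.27 CPM with no call.

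Scg2 and Vgf encode granins, acidic proteins of dense-core vesicles that are themselves cut into peptides. Scg2 (chr1:79434669-79440120) stood at 1039, 1161, 690.3 and 827 CPM in dLG, 2731, 2337, 1739 and 2292 CPM in VPM and 1680.0, 1659 and 1369 CPM in MGv. The nuclei did not overlap, in the order VPM, MGv, dLG. It was 2.45-fold higher in VPM than in dLG (log2 fold change 1.29 ± 0.18, adjusted p = 0.000409, edgeR) and 1.69-fold higher in MGv than in dLG (0.76 ± 0.19, adjusted p = 0.0157). The difference of VPM over MGv was 0.54 ± 0.19 (adjusted p = 0.0802), and its call was lost without VPM 1, 2 or 4 or any 1 MGv library (adjusted p = 0.117 to 0.248) and with scaling to total counts.

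Vgf had 236, 247, 169 and 361 CPM in dLG, 169, 125, 79.9 and 177 CPM in VPM and 397, 245 and 280.1 CPM in MGv. MGv was above VPM, and dLG overlapped with both. It was 2.23-fold higher in MGv than in VPM (log2 fold change 1.16 ± 0.28, adjusted p = 0.015, edgeR) and 1.84-fold higher in dLG than in VPM (0.88 ± 0.26, adjusted p = 0.0599). The latter call was lost without dLG 1 or 4 or VPM 2 (adjusted p = 0.111 to 0.206). Vgf, Scg2, Penk and Adcyap1 are known to respond to neuronal activity, as do Fos and Egr1 of the 9 genes of the dissociation response. Those 9 summed to 387 to 560 CPM in dLG, 214 to 291 in VPM and 496 to 618 in MGv, the same order of nuclei as for Vgf and another than for Scg2. By mean, Adcyap1 had the order of Vgf too, at 17.5 CPM in MGv, 7.25 in dLG and 6.81 in VPM, although dLG and VPM overlapped. Penk had the order of Scg2, with means of 7.72 CPM in VPM, 5.68 in MGv and 1.97 in dLG. Their part in these results was not tested.

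Of the 56 genes, 40 were tested. In 6 of them (Calca, Adcyap1, Oxtr, Cckbr, Tacr3 and Ntsr1), every MGv library was above every other library, beside 5.97% of all genes tested. The same held in dLG for 4 genes (Galr2, Npy5r, Avpr1a and Nmb, which was not called), beside 3.02%, and in VPM for 3 genes (Scg2, Ntsr2 and Crhbp), beside 3.49%. Together with Nts, Nppa and Galr1, 9 members were highest in MGv, and dLG 2 was the highest dLG library for 8 of them, all but Ntsr1. Over the 950 genes with that MGv pattern the share with dLG 2 highest was 47.5%, and over all genes tested it was 28.7%. The summed level of 7 oligodendrocyte lineage markers was highest in the MGv libraries too, at 13.1 to 30.5 CPM in dLG, 33.7 to 43.9 in VPM and 74.8 to 86.4 in MGv. Of these, Mbp reached 62.3 to 71.3 CPM in MGv, whereas Olig2 was at 0 in all MGv libraries and Sox10 was at or below 0.0475 CPM in all libraries. Slc1a3, one of the astrocyte and radial glia markers, was at 45.4 to 90.2 CPM in MGv and at most at 17.9 CPM elsewhere, in dLG 2. The part of these markers in the MGv results was not tested.

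Of the 85 further peptide and receptor genes outside the set, 33 passed the filter, 15 were called among the 3 nuclei (45.5%, beside 24.2% of all genes tested) and 10 in each pairwise comparison, beside 10.7%, 16.1% and 19% of all genes tested. Rxfp1, a relaxin receptor, was at 0.109 to 3.26 CPM in dLG, 2.11 to 3.70 in VPM and 23.8 to 30.2 in MGv. The log2 fold change of MGv over dLG was 4.47 ± 0.64 (adjusted p = 0.000429, edgeR), and 5.94 without dLG 2. Pth2r, the gene of the parathyroid hormone 2 receptor, was at 6.30 to 7.19 CPM in MGv and at or below 1.30 CPM elsewhere. Its log2 fold change over dLG was 4.77 (adjusted p = 0.0014, edgeR), and 6.77 without dLG 2. Gpr83 was at 17.8 to 33.5 CPM in MGv and at or below 6.61 CPM elsewhere, with 3.49 over dLG (adjusted p = 0.019), 5.66 without dLG 2. Ednra, an endothelin receptor, was the one of these higher in dLG, at 4.21 to 6.72 CPM against at most 1.42 CPM elsewhere (log2 fold change over VPM 2.53, adjusted p = 0.0023).

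Of 32 genes for peptide maturation and dense-core vesicles, 29 passed the filter and 17 were called among the 3 nuclei (58.6%, beside 24.2% of all genes tested). The pairwise comparisons gave 9 calls for dLG against VPM (background 10.7%), 9 for dLG against MGv (16.1%) and 10 for VPM against MGv (19%). Pam, which amidates the C terminus of peptides such as cholecystokinin and CGRP, had 24.5 to 36.3 CPM in dLG, 7.09 to 9.68 in VPM and 20.0 to 28.1 in MGv. It was lowest in VPM, where Cck was highest (log2 fold change of dLG over VPM 1.78 ± 0.19, adjusted p = 5.26e-05, edgeR). The convertase gene Pcsk2 had the other order, with 36.8 to 112 CPM in dLG, 179.9 to 219 in VPM and 102 to 148 in MGv. Its difference between VPM and dLG was 1.58 ± 0.27 (adjusted p = 0.00225), and that between MGv and dLG was 0.86 (adjusted p = 0.0634), lost without dLG 1, 3 or 4 or MGv 1 (adjusted p = 0.129 to 0.231). Pcsk5 was lower in MGv, at 4.21 to 5.63 CPM against 18.5 to 28.0 CPM elsewhere (2.28 below dLG on the log2 scale, adjusted p = 1.22e-05), and Pcsk6 was lower in dLG, at 0.762 to 2.19 CPM against 4.42 to 6.32 CPM (1.95 below MGv, adjusted p = 0.0021).

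Of 55 genes that act downstream of peptide receptors, 53 passed the filter and 24 were called among the 3 nuclei (45.3%, beside 24.2%), with 13, 15 and 19 calls in the same pairwise comparisons (background 10.7%, 16.1% and 19%). As with the members, these lists were chosen with results of these data known, and nothing is read from their shares beside the background. Plcb1, a phospholipase activated by Gq-coupled receptors, was at 35.9 to 72.3 CPM in MGv and at or below 12.8 CPM elsewhere (log2 fold change over dLG 2.92 ± 0.27, adjusted p = 1.18e-05, edgeR). Plcb3 and Plcb4 of the same list were not called in any comparison. Adcy8, an adenylyl cyclase activated by calcium, was also highest in MGv by mean, at 16.9 to 33.4 CPM (2.14 ± 0.34 over VPM, adjusted p = 0.000852). Pde1c, a phosphodiesterase of cyclic nucleotides, was at 7.25 to 13.4 CPM in dLG and 36.9 to 88.2 CPM elsewhere (2.78 ± 0.27 below VPM on the log2 scale, adjusted p = 2.61e-05). Kcnj3, a subunit of potassium channels opened by Gi-coupled receptors, was at 7.31 to 11.0 CPM in VPM and 0.375 to 4.56 CPM in MGv (2.09 ± 0.56, adjusted p = 0.0245), and 3.33 without MGv 3.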

How the data were processed

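RNA-seq was performed on tdTomato-positive neurons sorted at postnatal day 0 from dLG, VPM (4 libraries each) and MGv (3 libraries). Per the labels and the methods of the study, cDNA was amplified (SMARTer ultra low input) and sequenced as single reads of 50 bases. The deposited values were raw read counts per gene, which the authors obtained with FastQC 0.11.7, Trim Galore 0.6.1, cutadapt 2.3, STAR 2.7.0d, SAMtools 1.9 and featureCounts of Subread 1.6.4 on GRCm38. Strand use and the treatment of multiple alignments were not given in the sources used here.

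Symbols, positions and exon lengths came from GENCODE M21, which is newer than the annotation of the counts, and promoter windows from RefSeq. Genes were filtered with filterByExpr (15907 of 33170 with at least 1 count), scaled by TMM and tested with edgeR 4.0.16 in R 4.3.3, using 3 group means and all 11 libraries. The common biological coefficient of variation was 28.2%. Libraries of a nucleus differed by more than sampling noise (chi-square per degree of freedom 13.6 to 124 over 15 pairs), so none was counted as a copy. The test was also tried on simulated counts, with means and dispersions taken from the fit to these libraries.

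Values by library were given for called genes, for uncalled genes with a mean of at least 10 CPM and for the 4 described without a test. From each further list, up to 4 called genes with the largest fold change and at least 5 CPM in 1 nucleus were named. Members and lists were chosen with earlier results of these data known. Alternatives used DESeq2 1.42.0, limma 3.58.1, other scalings, filters and libraries. The floor of 3 counts covers counting error only.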

Additional observations from a re-analysis of the deposited data

Results flagged for a closer look

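There were 62 sets of 4 values (31 genes in dLG and in VPM). In 7, a library's gap to its nearest neighbour, as a share of the range, passed the 95% critical value of Dixon's test. For independent normal values that happens in about 1 in 20 sets. The sets here share libraries and some CPM lie near 0, so nothing is read from the count of 7. In dLG, replicate 2 stood above the other 3 libraries for Galr1 (0.858 CPM against at most 0.0953), Adcyap1r1 (13.3 CPM against 2.24 to 2.88) and Tacr3 (1.12 CPM against at most 0.0953). For Pnoc, dLG 1 stood high at 50.6 CPM against 30.9 to 32.3. In VPM, replicate 3 stood above the others for Penk (20.9 CPM against 2.94 to 4.04) and Grp (3.72 CPM against 0.173 to 0.370) and below them for Crhr1 (6.07 CPM against 14.4 to 15.9). Both dLG 2 and VPM 3 belong to the libraries with low Hspa8.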

How the results depend on the processing

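Of 44 called comparisons of members, 30 kept their call and direction without each library in turn and in every alternative that gave a value, 14 lost the call without at least 1 library, and 0 reversed. Demanding at least 10 counts in every library gave no value for 15 of the 44, among them 7 of the 30, and DESeq2 none for 1. That minimum, which leaves fewer genes to test, lowered the count of members called to 9 (from 15) for dLG against VPM and to 15 (from 23) among the 3 nuclei, and that of further peptides and receptors to 6 (from 15). Other alternatives moved no count of calls by over 1.5 times. Leaving out 1 library at a time gave 11 to 19 members for dLG against VPM, 11 to 19 for dLG against MGv, 10 to 15 for VPM against MGv and 19 to 26 among the 3 nuclei, 12 to 17 further peptides, 12 to 17 maturation genes and 21 to 31 signalling genes. With the replicate number as a block, 13, 14, 14 and 20 members were called in these comparisons. Deviations of same-numbered libraries correlated at 0.0155 on average (-0.20 to 0.48, 10 pairs), beside -0.0051 for other pairs (-0.31 to 0.27, 30 pairs). The highest value of all was that of dLG 4 with VPM 4. Among the Hspa8-low libraries, correlations were 0.268 (dLG 2 with VPM 3), 0.261 (dLG 2 with MGv 1) and 0.230 (MGv 1 with VPM 3). A mean over few pairs cannot show whether some libraries were prepared together, so whether the numbers pair the libraries was not settled. Of 25 called comparisons of named genes outside the set, tried under the same alternatives after the data were seen, 24 kept their call. Depth limits genes near 1 CPM, where few reads carry a fold change.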
